A study of Homo sapiens with 12 samples.

Results

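Eph receptors are the largest family of receptor tyrosine kinases, and their ligands, the ephrins, sit in the membrane of the neighbouring cell. 10 genes of this family were followed in HCT116 cells, the receptors EPHA1, EPHA2, EPHA4, EPHB2, EPHB3 and EPHB4 and the ligands EFNA1, EFNA4, EFNB1 and EFNB2, of 15798 genes in the deposited count table. They were picked by gene symbol, and the choice rested on measured values of these same libraries, in which EPHA2 and EPHA4 moved in opposite directions under MEK1/2 inhibition. The trametinib over DMSO changes of the 10 genes in input and in footprints are therefore descriptions with no test, whereas ribosome density, the footprints relative to the input, was not used in the choice and is tested. HCT116 is a human colorectal carcinoma line, grown here in McCoy's 5A medium with serum, and it stands for 1 genetic background only. Dishes received 100 nM trametinib, an inhibitor of the kinases MEK1 and MEK2 that activate ERK, or the solvent DMSO for 24 h, and all dishes received cycloheximide shortly before lysis. From each treatment 3 input libraries (fragmented cytoplasmic RNA) and 3 footprint libraries (RNA protected by ribosomes, taken from monosomes after RNase I) were sequenced, so that there were 4 groups of 3.

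Eph receptors cluster when they bind ephrins on an adjacent cell and then signal forward through their kinase and adaptor proteins, while the ephrin-bearing cell receives a reverse signal. A-type receptors bind mainly the lipid-anchored ephrin-A ligands and B-type receptors mainly the transmembrane ephrin-B ligands. In the intestinal epithelium EPHB2 and EPHB3 are known as Wnt target genes that sort cells along the crypt, and EPHA2 is known as a gene that ERK signalling induces.

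The starts of the 3 genes on which the description turns most, EPHA2 and EFNB2, which fell, and EPHA4, which rose, are shown by the 250 bases before their RefSeq start site on GRCh38.p14, written in the direction of transcription. All 10 genes matched the RefSeq table, with 12 windows in all because EPHA4 and EPHB2 have more than 1 start.
EPHA2, chr1:16156070-16156319, minus strand: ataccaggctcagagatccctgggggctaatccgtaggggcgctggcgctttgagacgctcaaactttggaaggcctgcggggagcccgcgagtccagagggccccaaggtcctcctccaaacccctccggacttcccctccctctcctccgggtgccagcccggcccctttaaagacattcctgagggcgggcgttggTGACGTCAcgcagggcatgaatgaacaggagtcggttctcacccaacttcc
EFNB2, chr13:106535663-106535912, minus strand: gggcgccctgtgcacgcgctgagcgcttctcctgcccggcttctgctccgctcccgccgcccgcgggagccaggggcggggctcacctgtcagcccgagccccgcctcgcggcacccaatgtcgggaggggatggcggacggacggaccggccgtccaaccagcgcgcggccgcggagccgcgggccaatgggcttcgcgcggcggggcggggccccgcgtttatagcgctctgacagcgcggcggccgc
EPHA4, chr2:221574203-221574452, minus strand: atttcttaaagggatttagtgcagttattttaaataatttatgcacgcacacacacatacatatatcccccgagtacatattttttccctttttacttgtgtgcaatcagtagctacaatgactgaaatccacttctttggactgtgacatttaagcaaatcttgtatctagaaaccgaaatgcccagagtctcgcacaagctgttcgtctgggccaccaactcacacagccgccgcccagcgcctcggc
Capitals in the EPHA2 window mark TGACGTCA, the cyclic AMP response element (CRE), a palindrome found in 1 of the 12 windows and in 1.65% of all 35116 promoter windows of the table. The CRE was looked for after the EPHA2 window had been read. An ETS motif (CCGGAA), an AP-1 motif (TGANTCA), a TCF motif (ATCAAAG) and an E-box (CACGTG), read on either strand, were present in 14.5%, 6.57%, 2.26% and 6.35% of all windows and in 0 of these 12. A match here is a run of letters, and its absence says only that those letters are not in the window. The windows differed in composition, with a GC content of 63.2% for EPHA2, 78.4% for EFNB2 and 43.2% for the EPHA4 window shown, but 78.0% for the window of the other EPHA4 start, against a median of 58.0% over all windows.

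Library totals ranged from 2276693 to 2845568 reading frame counts for the 6 inputs and from 10127477 to 19181588 for the 6 footprint libraries, so that weakly expressed receptors rest on few input counts. ERK output genes moved with the treatment labels. Input counts were 515 to 748 under DMSO and 0 to 5 under trametinib for DUSP6, 135 to 271 and 1 to 2 for SPRY4, and 210 to 593 and 0 to 6 for ETV5. The epithelial markers EPCAM, CDH1, KRT8 and KRT18 were abundant, but CDX1 and VIL1, markers of intestinal differentiation, had at most 2 counts in any library. Summed levels of 3 immune, 3 fibroblast and 3 endothelial markers stayed at or below 15.8 CPM (counts scaled to the library total). The endothelial marker VWF moved with treatment, from 1 to 9 input counts under DMSO to 21 to 23 under trametinib, while PECAM1 and CDH5 had at most 3 counts in any library. DMSO replicate 1 stood apart from the other DMSO replicates in both assays, and values without it are given where a result rests on it. CPM values carry TMM scaling (edgeR's trimmed mean of M values) within each assay. These are bulk measurements, in which fewer cells with an mRNA and less of it per cell cannot be told apart.

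Among the A-type receptors, EPHA2 had the highest level per kilobase of the 10 genes under DMSO and the lowest under trametinib, in both assays. EPHA2 (ENSG00000142627.13, chromosome 1, 16124337 to 16156069, minus strand, GRCh38, Gencode v44) encodes a receptor that is frequent on epithelial and carcinoma cells. Its input level was 563, 266 and 280.1 CPM in DMSO replicates 1 to 3 and 4.45, 6.145 and 6.58 CPM in the trametinib replicates. No trametinib value came near a DMSO value, and the means differed 64.6-fold. In footprints EPHA2 stood at 428, 224 and 152.6 CPM under DMSO and at 3.62, 4.205 and 3.18 CPM under trametinib, a 73.1-fold difference of the means. On the log2 scale the fitted changes were -6.02 (SE 0.35) in input and -6.19 (SE 0.41) in footprints, the 6th lowest and the 5th lowest among 10663 genes tested. DMSO replicate 1 held the highest EPHA2 level in both assays, and without it the changes were -5.58 and -5.67. The ERK output genes DUSP6, SPRY4 and ETV5 were also highest in that replicate, with ETV5 at 217, 104.7 and 83.4 CPM in DMSO input, and the part of this in the EPHA2 values was not tested.

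EPHA4 went the other way from a low level. EPHA4 (ENSG00000116106.12, chromosome 2, 221418027 to 221574202, minus strand) encodes a receptor that binds ephrins of the A type and several of the B type. It had 11, 15 and 8 input counts under DMSO and 17, 24 and 28 under trametinib, or 4.21 CPM ± 1.14 against 9.90 ± 2.76 (SD, n = 3). Footprints, which are deeper, gave 71, 61 and 79 counts under DMSO and 225, 231 and 213 under trametinib, or 5.05 CPM ± 1.14 against 14.1 ± 2.72 (SD, n = 3). DMSO and trametinib libraries were fully apart in each assay, and the fitted log2 changes were 1.22 (SE 0.34) and 1.50 (SE 0.22). The DMSO inputs alone would not have met the count minimum of 10 in 3 libraries, and EPHA4 entered the fit through its trametinib inputs. Its input counts lie close to that minimum, so the footprint change is the more precise of the pair.

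EPHA1 (ENSG00000146904.9, chromosome 7, 143390289 to 143408856, minus strand), a further A-type receptor of epithelia, moved little. In input it stood at 60.6, 52.9 and 59.6 CPM under DMSO and at 67.1, 79.0 and 68.9 CPM under trametinib. In footprints it stood at 33.3, 28.8 and 25.6 CPM and at 43.0, 41.8 and 35.3 CPM. Every trametinib value was above every DMSO value, with log2 changes of 0.31 (SE 0.16) in input and 0.45 (SE 0.14) in footprints.

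The balance of EPHA2 and EPHA4 turned over in every replicate. Per kilobase of coding sequence, which allows levels of different genes to be compared, EPHA2 exceeded EPHA4 by 141.7, 49.5 and 89.1 times in the DMSO input libraries. In the trametinib input libraries the same ratio was 0.654, 0.590 and 0.541. In footprints the ratio went from 103.1, 35.6 and 33.5 under DMSO to 0.332, 0.280 and 0.199 under trametinib. EPHA4 footprints were hence 3.01, 3.57 and 5.02 times those of EPHA2 under trametinib, per kilobase.

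**Figure D1:**
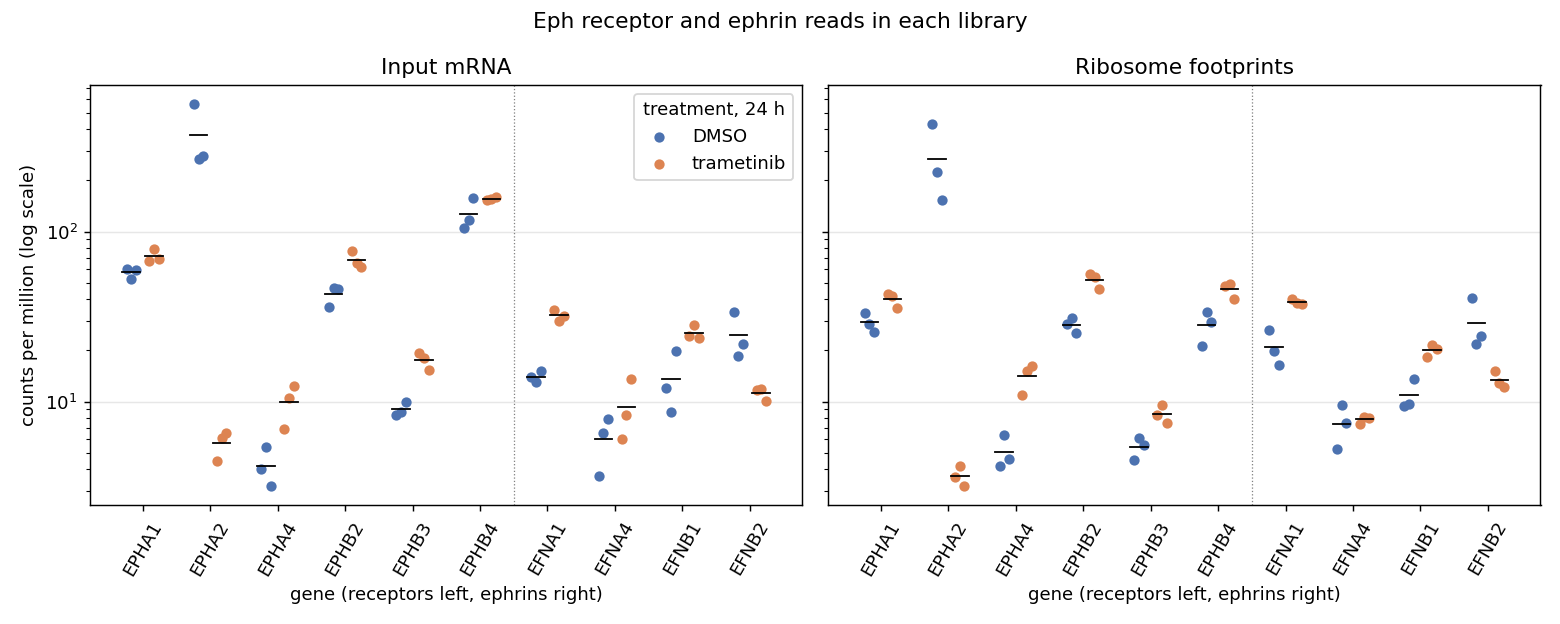
Level of the 10 genes in each library, in CPM on a log axis, for input on the left and footprints on the right. Each point is 1 library and each short line a group mean of 3 libraries, and EPHA2 drops from 369.7 to 5.73 CPM in input while EPHA4 moves from 4.21 to 9.90 CPM.

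EPHB2 and EPHB3 stood higher under trametinib in both assays, and EPHB4 in footprints. EPHB2 (ENSG00000133216.17, chromosome 1, 22710839 to 22921500, plus strand), the crypt receptor, was at 36.1, 46.8 and 46.1 CPM in DMSO input and at 76.8, 65.4 and 62.3 CPM in trametinib input. Its footprints were at 28.6, 31.2 and 25.2 CPM and at 56.1, 53.8 and 45.8 CPM, with every trametinib library above every DMSO library. The log2 changes of EPHB2 were 0.67 (SE 0.18) and 0.88 (SE 0.13).

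EPHB3 (ENSG00000182580.3, chromosome 3, 184561785 to 184582408, plus strand), which acts with EPHB2 in crypts, was scarcer. It had 23, 24 and 25 counts in DMSO input and 48, 41 and 35 in trametinib input, or 9.01 CPM ± 0.815 against 17.6 ± 2.06 (SD, n = 3). Footprints were 5.42 CPM ± 0.806 and 8.45 ± 1.03 (SD, n = 3). The treatments were apart in both assays, with log2 changes of 0.97 (SE 0.24) and 0.65 (SE 0.18).

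EPHB4 (ENSG00000196411.10, chromosome 7, 100802565 to 100827523, minus strand), the receptor of ephrin-B2, differed between the assays in how well the treatments separated. Its input was 104.8, 116.7 and 158.5 CPM under DMSO and 154.1, 155.8 and 158.8 CPM under trametinib. DMSO replicate 3 lay inside the trametinib range, and the log2 change of 0.30 (SE 0.17) did not separate the groups. Its footprints were 21.3, 33.8 and 29.2 CPM under DMSO and 47.9, 49.1 and 40.2 CPM under trametinib, which did not overlap, with a log2 change of 0.71 (SE 0.18).

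Among the ephrin-A ligands, EFNA1 rose and EFNA4 did not separate the treatments. EFNA1 (ENSG00000169242.12, chromosome 1, 155127876 to 155134899, plus strand) encodes the main partner ligand of EPHA2. It stood at 13.9, 13.1 and 15.1 CPM in DMSO input and at 34.8, 29.9 and 32.0 CPM in trametinib input. In footprints it stood at 26.2, 20.0 and 16.5 CPM and at 40.0, 37.8 and 37.4 CPM. No DMSO library reached any trametinib library, and the log2 changes were 1.20 (SE 0.20) and 0.88 (SE 0.17), opposite in sign to those of EPHA2.

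EFNA4 (ENSG00000243364.8, chromosome 1, 155063737 to 155069553, plus strand), a ligand of A-type receptors, had 10, 18 and 20 counts in DMSO input and 15, 19 and 31 in trametinib input. In footprints it was at 5.26, 9.57 and 7.45 CPM under DMSO and at 7.39, 8.15 and 8.02 CPM under trametinib, inside the DMSO range. The log2 changes were 0.63 (SE 0.38) and 0.10 (SE 0.22). EFNA4 overlaps a readthrough gene that joins it to EFNA3 in Gencode v44, and since reads shared between symbols were not counted by the authors, it may have been measured on part of its sequence.

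The ephrin-B ligands moved apart. EFNB1 (ENSG00000090776.6, chromosome X, 68829021 to 68842160, plus strand), a transmembrane ligand of B-type receptors, was at 12.1, 8.70 and 19.9 CPM in DMSO input and at 24.3, 28.1 and 23.7 CPM in trametinib input. Footprints were at 9.45, 9.67 and 13.5 CPM and at 18.3, 21.7 and 20.4 CPM. The treatments did not overlap, and the log2 changes were 0.91 (SE 0.28) and 0.88 (SE 0.17).

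EFNB2 (ENSG00000125266.8, chromosome 13, 106489745 to 106535662, minus strand), the ligand of EPHB4, was the other member that was lower under trametinib. Its input was 33.6, 18.5 and 21.9 CPM under DMSO and 11.7, 11.9 and 10.1 CPM under trametinib. Its footprints were 40.5, 21.8 and 24.2 CPM and 15.2, 12.9 and 12.2 CPM. All DMSO values lay above all trametinib values, with log2 changes of -1.13 (SE 0.27) and -1.10 (SE 0.24). As for EPHA2, DMSO replicate 1 was the highest, and without it the changes were -0.84 and -0.77.

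Counted with a threshold of 0.05 on the adjusted p-value of edgeR's quasi-likelihood test, input held 5 of the 10 genes as higher and 2 as lower, and 3 (EPHA1, EPHB4 and EFNA4) were not called. Of all 10663 genes tested, 15.4% were higher and 16.8% lower in input. In footprints 7 of the 10 genes were higher, 2 were lower and 1, EFNA4, was not called, against 23.9% higher and 25.6% lower over all genes. Because the choice of genes used these contrasts, nothing is read from the counts. The median log2 change of the 10 genes was 0.65 in input and 0.68 in footprints, beside medians of all genes of -0.0015 and -0.013. Leaving out 1 input library moved the number of higher genes to between 3 and 6. It was 3 without trametinib replicate 1, where EPHB2 (0.57) and EFNB1 (0.94) were not called, and 3 without trametinib replicate 2 or 3, where EPHA4 (1.17 and 1.03) and EFNB1 (0.83 and 0.96) were not called. Without DMSO input replicate 2 EFNB1 (0.67) was not called, and without DMSO input replicate 3 EPHB4 (0.50) was called. In footprints EPHA1 was not called without DMSO replicate 2 (0.45) or 3 (0.38) or trametinib replicate 1 (0.40) or 2 (0.42), and EPHB3 was not called without trametinib replicate 2 (0.56).

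**Figure D2:**
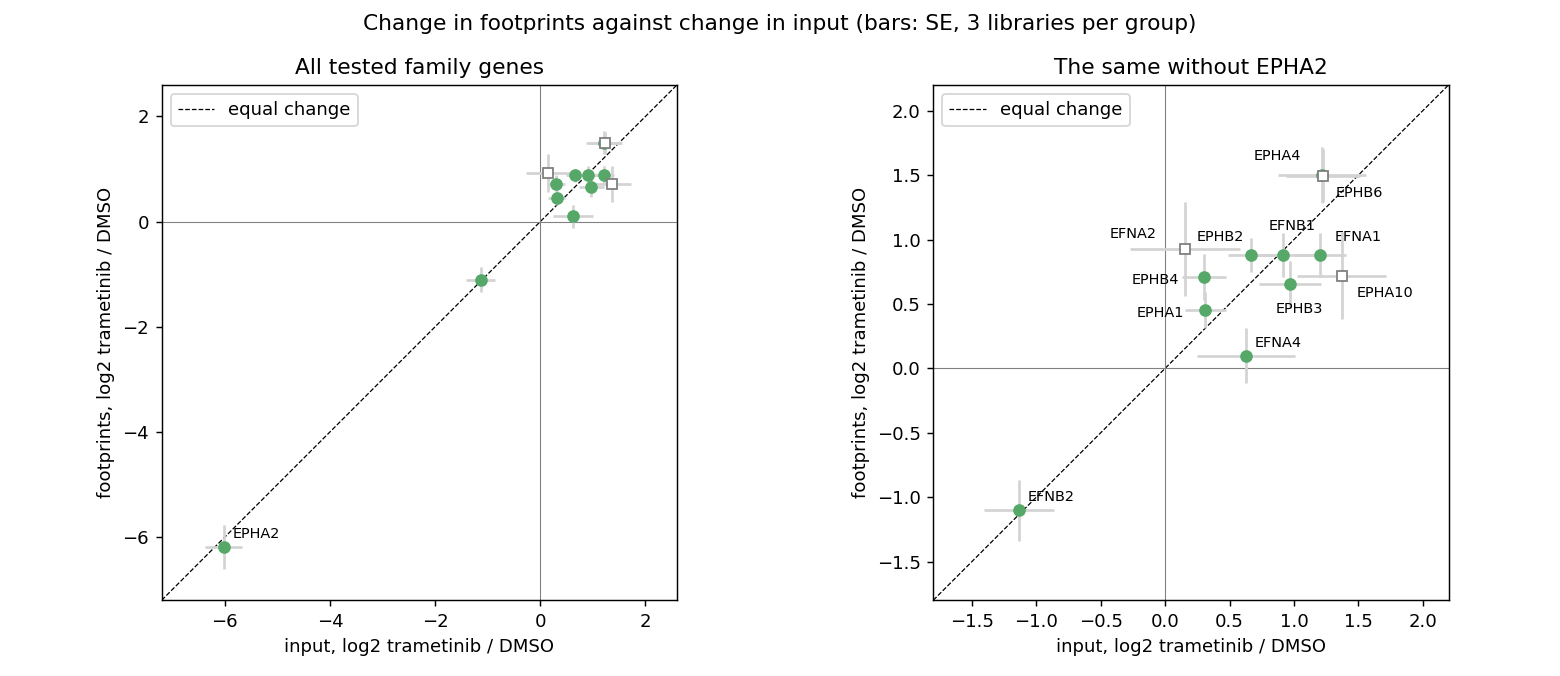
Log2 change of trametinib over DMSO in footprints against that in input, with SE bars, for the 10 genes (filled circles) and 3 further family genes (open squares), with EPHA2 left out of the right panel. The dashed line marks equal change in both assays, EPHA2 lies near it at -6.02 and -6.19, and the points of EPHA4 and EPHB6 coincide.

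Ribosome density was compared to ask whether translation of these mRNAs, relative to other mRNAs, changed beyond their abundance. A change common to all mRNAs is removed by the scaling, and the study reported a smaller polysomal share in HCT116 after the same treatment. No member was called. Over all 10663 genes 0.0469% were called higher and 1.00% lower. An unadjusted p under 0.05 in edgeR's quasi-likelihood test was reached by 0 of the 10 genes, beside 866 of all 10663. The adjusted p-values of the 10 genes ranged from 0.782 to 0.996, and DESeq2 and limma also called 0.

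The intervals of the fit without a block, given first, show how large a change in ribosome density that fit could have missed. For EPHA2 the log2 change in ribosome density was -0.16 (SE 0.63, 95% interval -1.50 to 1.18, edgeR adjusted p = 0.995). With both DMSO replicate 1 libraries left out it was -0.09, with a narrower interval of -0.78 to 0.60. For EPHA4 it was 0.29 (SE 0.41, interval -0.59 to 1.17, edgeR adjusted p = 0.972). EPHB2 had the narrowest interval but 1 among the members, -0.23 to 0.66 around 0.22, and EPHA1 the narrowest, -0.26 to 0.56 around 0.15. The study took input and footprints from 1 lysate, which a block for each pair of the same number takes into account. With that block the interval was -0.75 to 0.51 around -0.12 for EPHA2 and -0.42 to 0.96 around 0.27 for EPHA4. The labels do not tie equal numbers to 1 lysate.

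EPHB4 had the smallest adjusted p-value for ribosome density among the members, 0.782 in edgeR, with a log2 change of 0.41 (SE 0.25, interval -0.13 to 0.95). The estimates of EPHB3 and EFNA1 were -0.31 (interval -0.90 to 0.27) and -0.32 (interval -0.85 to 0.21). EFNB1 and EFNB2 lay at -0.03 (interval -0.75 to 0.69) and 0.04 (interval -0.77 to 0.85). EFNA4, with 10 to 31 input counts, had -0.52 and an interval from -1.49 to 0.44. With the block for each pair, the EPHB4 change was 0.41 and its interval, 0.01 to 0.81, lay above 0 (edgeR adjusted p = 0.410).

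The mean ribosome densities of the receptors spanned a wider range than the difference between treatments for any of them. EPHB4 had a log2 ratio of footprints to input of -2.23, -1.72 and -2.35 in DMSO replicates 1 to 3, and its mean of -2.10 stood at percentile 3.3 of all tested genes. EPHB2, a receptor with the same ligands in part, had -0.27, -0.52 and -0.79 and a mean at percentile 29.3. The 3 values of EPHB4 lay below all 3 values of EPHB2, EPHB3, EPHA1, EPHA2 and EPHA4 in DMSO. Under trametinib EPHB4 was at -1.62, -1.58 and -1.89, percentile 6.9, again below the other 5 receptors in every replicate. No test was made of these differences between genes, and the values pair input and footprint libraries of equal number, which the labels do not tie to 1 dish.

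At the other end, EFNA1 had ribosome densities of 0.98, 0.66 and 0.20 under DMSO, with its mean at percentile 74.2. EPHA4 stood at 0.08, 0.25 and 0.54 under DMSO and at 0.71, 0.58 and 0.46 under trametinib, percentiles 61.2 and 73.0. It was the only receptor with all values above the median of all tested genes, 0.02 under DMSO. EFNB2 stayed between 0.23 and 0.34 under DMSO and between 0.19 and 0.42 under trametinib, although its level fell in both assays.

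**Figure D3:**
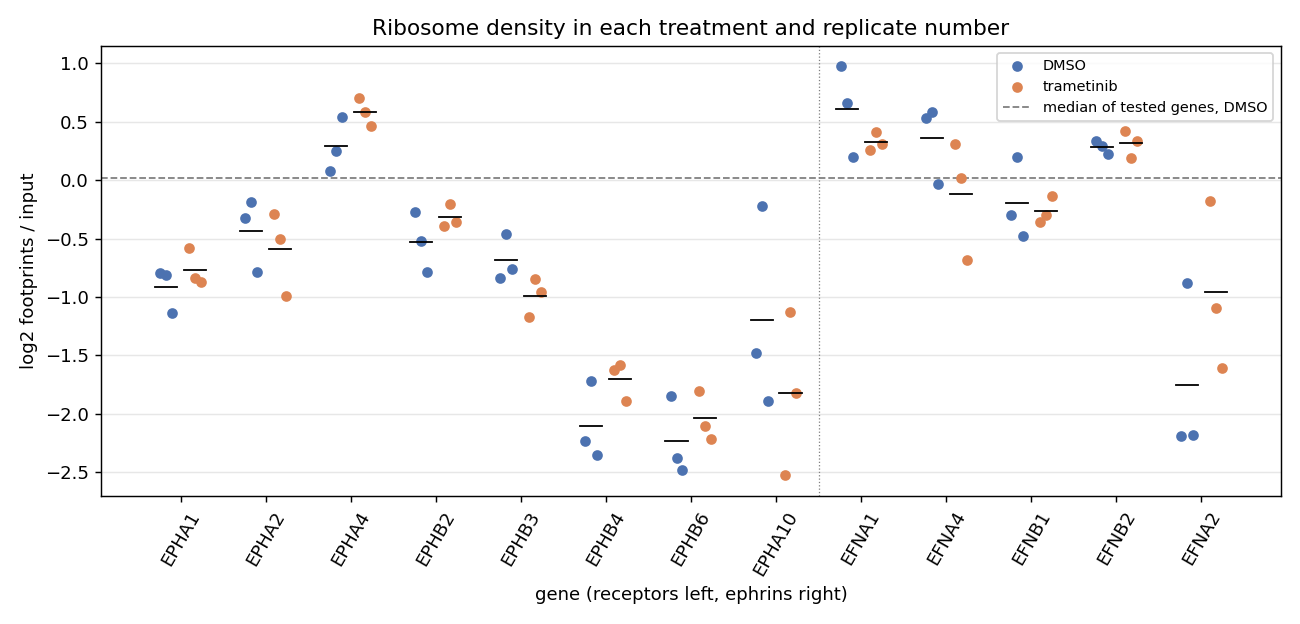
Ribosome density, the log2 ratio of scaled footprints to scaled input, for each treatment and replicate number, with group means as short lines. EPHB4 and EPHB6 lie near -2 under both treatments, and the means of EFNA2 under DMSO (-1.75) and EPHA10 under trametinib (-1.825) come near it. EPHA4 and EFNA1 lie above the median of all tested genes (dashed), and most genes overlap between treatments.

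The order of the levels per kilobase of coding sequence changed with treatment. In DMSO input EPHA2 led at 126.3 CPM per kb ± 57.2 (SD, n = 3), followed by EPHB4 at 42.8 ± 9.54, and neither overlapped with its successor. EFNB2 (24.7 CPM per kb) and EFNA1 (22.8 CPM per kb) overlapped with each other, EPHA1 (19.7) came next, EPHB2 (13.3), EFNB1 (13.0) and EFNA4 (7.79) overlapped in turn, and EPHB3 (3.01) and EPHA4 (1.42) closed the order. Overlap was read between neighbours in the order only. EPHA1 (18.07 to 20.69) also overlapped with EFNB2 (18.5 to 33.62) and EFNB1 (8.38 to 19.14), so its place is not resolved. In trametinib input EPHB4 (52.8 CPM per kb ± 0.808) and EFNA1 (52.4 ± 4.02) shared the top with overlapping libraries, and EPHA4 (3.35) and EPHA2 (1.96) were the lowest.

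In footprints the top changed from EPHA2 at 91.6 CPM per kb ± 48.8 (SD, n = 3) under DMSO to EFNA1 at 62.5 ± 2.22 under trametinib. EFNA1 and EFNB2 overlapped behind EPHA2 under DMSO at 34.0 and 28.9 CPM per kb. EPHB4, second in DMSO input, was seventh in DMSO footprints at 9.49 CPM per kb and overlapped with its neighbours EFNA4 and EPHB2. Under trametinib EFNB1 was second at 19.4 CPM per kb, and EPHB2 (16.0), EPHB4 (15.4), EPHA1 (13.7) and EFNB2 (13.5) followed, each overlapping with the next.

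As a share of all Eph receptor reads, EPHA2 gave 71.4%, 51.5% and 48.3% in the DMSO input libraries and 1.21%, 1.63% and 1.77% in the trametinib input libraries. In footprints its share went from 81.7%, 66.7% and 61.8% to 2.01%, 2.28% and 2.00%. EPHB4 became the largest contributor to input, with 41.7%, 41.3% and 42.6% under trametinib. The summed level of the receptors other than EPHA2 was 258.8 CPM ± 37.8 in DMSO input and 367.3 ± 3.48 in trametinib input (SD, n = 3), and 100.6 ± 9.69 and 170.9 ± 13.4 in footprints. With EPHA2 included the sum was 628.5 CPM ± 142.4 in DMSO input and 373.1 ± 4.18 in trametinib input.

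Ephrin reads shifted away from EFNB2 and towards EFNA1 and EFNB1. EFNB2 gave 49.7%, 35.9% and 28.5% of ephrin reads in DMSO input and 14.4%, 13.6% and 11.3% in trametinib input. EFNA1 gave 20.5%, 25.4% and 19.7% and then 42.6%, 34.3% and 35.8%. EFNB1 gave 33, 24 and 50 of 185, 142 and 193 ephrin reads in DMSO input. In trametinib input EFNB1 gave 60, 64 and 54 of 202, 198 and 204. In footprints the mean share of EFNB2 went from 39.9% to 15.9% and that of EFNA1 from 29.2% to 45.4%. The summed ephrin level was 65.2 CPM ± 12.8 in DMSO input and 86.0 ± 3.98 in trametinib input (SD, n = 3).

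**Figure D4:**
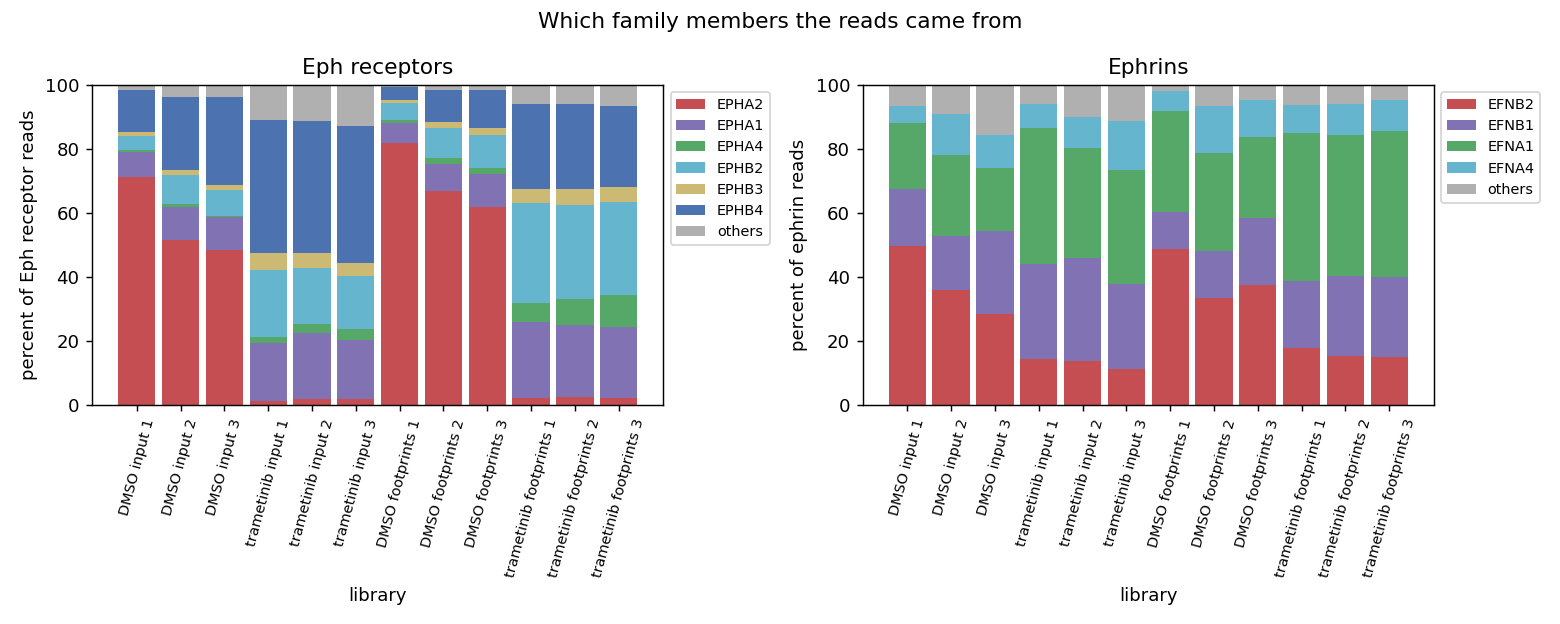
Percent of all Eph receptor reads (left) and of all ephrin reads (right) that came from each gene, with 1 bar per library and the remaining family genes in grey. EPHA2 takes at least 48.3% of receptor reads in each DMSO library and at most 2.28% in each trametinib library, and EFNA1 takes the largest ephrin share in the trametinib libraries.

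Of the 12 other genes of the family, 11 were listed in the table and 3 had enough input counts to be tested. EPHA3 was not listed in the table and so could not be analysed. EPHB6, a receptor without kinase activity, rose in input from 7.30, 16.0 and 17.9 CPM to 27.9, 32.5 and 35.5 CPM, a log2 change of 1.23 (SE 0.28, edgeR adjusted p = 0.0055). Without DMSO input replicate 1, its lowest value, the EPHB6 input change was 0.92. In footprints EPHB6 rose from 1.95, 2.91 and 3.03 CPM to 7.68, 7.16 and 7.19 CPM (1.50, SE 0.20, edgeR adjusted p = 4.12e-04), and its DMSO and trametinib libraries were apart. Like EPHB4, it had a low ribosome density under DMSO, with a mean of -2.23 at percentile 2.7. EPHA10, the other receptor without kinase activity, rose in input by 1.37 (SE 0.35, edgeR adjusted p = 0.00911), from 3.62 CPM ± 1.11 to 9.32 ± 2.19 (SD, n = 3), but its call was lost without trametinib replicate 1 (1.17). EPHA10 met the count minimum only through the trametinib inputs, and with no filter on counts its input change was 1.35 (edgeR adjusted p = 0.00554). Its footprint change of 0.72 was not called (edgeR adjusted p = 0.107). EFNA2 was not called in input (0.16, edgeR adjusted p = 0.815) or in footprints (0.93, edgeR adjusted p = 0.0616), and its footprint change was 0.54 without DMSO replicate 1 and was called without DMSO replicate 2 (1.18). The 3 genes had no call in ribosome density. The mean ribosome densities of EPHA10 and EFNA2 were also low, at percentiles 12.5 and 5.5 under DMSO and 5.8 and 18.8 under trametinib. These means rest on few input counts and spread widely. EPHA10 under DMSO had -1.48, -0.22 and -1.89 on 7 to 13 input counts. EFNA2 under trametinib had -0.17, -1.10 and -1.61 on 10 to 20 input counts.

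The remaining 8 listed family genes were at or near 0. EPHA5, EPHA6, EPHA7 and EFNB3 had at most 1 input count in any library, and EPHB1, EFNA3 and EFNA5 had at most 4. EPHA8 reached 6 input counts and 15 footprint counts, both under trametinib. EFNA5 reached 28 footprint counts under trametinib against 11 under DMSO. EFNA3 overlaps the same readthrough gene as EFNA4.

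The signalling partners of the family were taken from lists of their known roles and moved in mixed directions. Of 21 tested forward signalling partners of the receptors, 2 were higher and 3 lower in input and 6 higher and 2 lower in footprints. The shares over all genes were 15.4% (higher) and 16.8% (lower) for input, and 23.9% and 25.6% for footprints. Without DMSO footprint replicate 3, 4 of the list were lower in footprints, and with 1 model over all libraries 4 were higher in input. TIAM1, a Rac exchange factor that binds EPHA2, fell (input -1.70, SE 0.15, edgeR adjusted p = 2.74e-06), as did the focal adhesion adaptor PXN (-1.10, SE 0.20, edgeR adjusted p = 0.00129). The adaptor NCK2 rose (1.18, SE 0.21, edgeR adjusted p = 9.45e-04). The median input change of the list was 0.03, near that of all genes.

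Among 8 tested phosphatases, ubiquitin ligases and SAM domain partners, 2 were higher and 1 lower in input and 2 higher and 2 lower in footprints, beside 23.9% higher and 25.6% lower in footprints over all genes. The footprint count of lower genes was 0 with library totals and without trametinib footprint replicate 1 or 2, and 1 without DMSO footprint replicate 2 or 3 or trametinib footprint replicate 3, with no filter and with 1 model over all libraries. The input count of higher genes was 1 without trametinib input replicate 1, and that of lower genes was 0 to 2 when 1 library was left out. INPPL1, the lipid phosphatase SHIP2 that binds the SAM domain of EPHA2, rose (0.72, SE 0.16, edgeR adjusted p = 0.00415). The receptor phosphatase PTPRF rose (0.55, SE 0.14, edgeR adjusted p = 0.0113) and lost its call without trametinib input replicate 1 (0.45). ACP1, a low molecular weight tyrosine phosphatase, fell (-0.45, SE 0.15, edgeR adjusted p = 0.0352), but its call was lost when DMSO input replicate 1 (-0.39) or 2 (-0.45) or trametinib input replicate 1 (-0.42), 2 (-0.48) or 3 (-0.44) was left out, and with DESeq2's Wald test. Its footprint call was lost under 7 of 15 alternatives, where the change of -0.31 went to -0.14 with library totals.

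Of the 7 tested proteases that cut Eph receptors or ephrins, 3 were higher and 0 lower in both assays, beside 15.4% of all genes higher in input and 23.9% in footprints. The footprint count was 5 without DMSO footprint replicate 1 and with library totals. MMP14, a membrane metalloprotease known to cleave EPHA2, rose in input by 1.47 (SE 0.31, edgeR adjusted p = 0.00329) and in footprints by 1.09 (SE 0.14, edgeR adjusted p = 2.83e-04). ADAM10, which sheds ephrins, rose by 0.98 (SE 0.25, edgeR adjusted p = 0.00952) and 1.12 (SE 0.10, edgeR adjusted p = 3.78e-05). The gamma-secretase subunit NCSTN rose by 0.49 (SE 0.16, edgeR adjusted p = 0.0284) and 0.76 (SE 0.13, edgeR adjusted p = 0.00142). The input call of ADAM10 was lost without trametinib replicate 1 (0.82), and that of NCSTN without DMSO replicate 2 (0.42) or trametinib replicate 2 (0.49) or 3 (0.42). The medians of this list were 0.21 in input and 0.37 in footprints.

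Of the 8 tested ephrin-B reverse signalling and PDZ partners, 2 were higher and 0 lower in both assays, beside 15.4% of all genes higher in input and 23.9% in footprints. The footprint count was 4 without DMSO footprint replicate 1. STAT3, which relays ephrin-B signals, rose by 1.01 in input (SE 0.14, edgeR adjusted p = 1.40e-04) and by 1.18 in footprints (SE 0.12, edgeR adjusted p = 1.03e-04). PTPN13, a PDZ domain phosphatase that binds ephrin-B, rose by 0.83 (SE 0.20, edgeR adjusted p = 0.00747) and 0.79 (SE 0.17, edgeR adjusted p = 0.00484). No gene of these lists was called in ribosome density.

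The genes whose pattern over the 12 libraries was closest to that of EPHA2 were SPRY4, DUSP4, H2BC11, AURKB and H2BC17, by Euclidean distance of log2 CPM centred within each assay. Their distances ran from 1.15 for SPRY4 to 2.19 for H2BC17, against a median of 10.3 over all tested genes. SPRY4 and DUSP4 encode feedback inhibitors of ERK signalling, AURKB a mitotic kinase and H2BC11 and H2BC17 histone H2B. The H2B copies are near-identical, and reads shared between symbols were not counted by the authors. EFNB2 ranked 720 in this order and had a Pearson r of 0.928 with EPHA2, as a description over 12 libraries that share treatment and depth.

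The closest patterns to that of EPHA4 were those of MAN1A1, GSDME, ERAP2, CNTNAP1 and HLA-DQB1, at distances of 0.730 to 0.800 against a median of 2.55. MAN1A1 encodes a Golgi mannosidase, GSDME a gasdermin, ERAP2 an aminopeptidase of the endoplasmic reticulum, and HLA-DQB1 a chain of an antigen-presenting complex. EPHB6, with a distance of 1.30 and rank 398, was the nearest family gene to EPHA4, ahead of EFNA1 (1.42, rank 640).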

How the data were processed

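Ribosome footprint (Ribo-seq) and input libraries of HCT116 cells were used, 12 in all. According to the methods of the study and the submitters' processing notes, reads on rRNA and tRNA were removed with Bowtie 1.2.2, the rest were mapped to the Gencode basic transcripts on GRCh38, and reads within open reading frames of 1 gene symbol were counted. The authors deposited raw counts per gene, used here, and 12 columns of scaled counts per library, their fold changes and adjusted p-values (DESeq2 1.46.0), which were not used. The table lists 15798 genes.

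A count minimum of 10, reached by 3 or more inputs, left 10663 genes, which were tested with edgeR 4.0.16 in R 4.3.3 (quasi-likelihood F-test, two-sided, Benjamini-Hochberg over all tested genes, threshold 0.05). Input and footprints were each fitted within 6 libraries with TMM scaling. Ribosome density was the interaction of assay and treatment over 12 libraries with median-of-ratios scaling. DESeq2 1.42.0, limma 3.58.1 (prior count 2), other scalings and filters, replicate blocks and omission of each library were the alternatives. The models were tested on simulated counts. All values are relative, so a change in translation common to all mRNAs cannot be seen. Per-replicate ribosome density used a pseudocount of 0.5. Coding lengths came from Gencode v44.

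Nothing in the labels says that replicates were separate experiments. A figure legend of the study describes the mRNA and footprint fold changes as means over biological replicates. The p-values measure the spread between these libraries. Deviations from group means over 7677 genes (Pearson's r, across genes that are not independent of each other) correlated at 0.815, 0.180 and 0.343 between input and footprints of the same number under DMSO and at 0.141, 0.0815 and -0.121 under trametinib. The study took both from 1 lysate, but the labels give only the equal number. Between DMSO and trametinib, libraries of the same number correlated at over 0.1 in every pair of footprints but not of inputs. Libraries of different number were not compared, so this check cannot show that the number is a pairing, and no label says so. The main fits had no block.

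The 10 family genes, the gene lists and the genes named from them (all family genes listed, the 3 called genes of each signalling list with the largest input change, and the 5 nearest patterns to EPHA2 and EPHA4) were chosen with earlier results of these data known. A further list of signalling genes is not reported here.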

Additional observations from a re-analysis of the deposited data

How the results depend on the processing

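Of 795 values recomputed under the alternatives, 652 single-gene values stayed on the same side of 0 and of the threshold, and 103 counts of called members differed from the reported count by no more than 1.5 times. With the replicate number as a block (replicate block), 5 members were higher and 2 lower in input, 7 and 2 in footprints, and 0 in ribosome density. Of all 10663 genes, 1959 were then higher and 2053 lower in input, 2559 and 2725 in footprints, and 8 and 107 in ribosome density. The members were chosen on the input and footprint contrasts, so their counts in these remain descriptions and nothing is read from them. The EPHA2 changes with this block were -5.96 and -6.11. With a block for each pair of input and footprints of the same number, 0 members were called in ribosome density. EPHB4 was the 1 member with an unadjusted p under 0.05 (edgeR adjusted p = 0.410), beside 1243 of all 10663 genes. Across treatments, deviations of libraries of the same number correlated at 0.0680, 0.0483 and 0.333 in input and at 0.117, 0.132 and 0.294 in footprints. These values alone do not settle whether the number is a pairing. The block changed no call of a family gene in either assay.

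The signs that turned belong to estimates close to 0. The ribosome density change of EFNB1 was 0.039 with TMM over all libraries and 0.15 with library totals, and that of EPHA2 was 0.0056 with library totals. Leaving out 1 library gave ranges of -0.60 to 0.35 for EPHA2, -0.41 to 0.20 for EFNB1 and -0.26 to 0.36 for EFNB2 in ribosome density, -0.12 to 0.71 for EFNA2 in input, -0.093 to 0.31 for EFNA4 in footprints, and 3 to 6 members called higher in input. EFNA2 was called in footprints with library totals (1.10) and with 1 model over all libraries (0.99). The cause was not tested.

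Over all genes, library totals moved the median footprint change from -0.013 to 0.164, with 64.7% in place of 48.3% of calls higher, and the median ribosome density change from -0.00053 to 0.176 (27 genes higher and 78 lower in place of 5 and 107). DESeq2 called 37 and 150 in ribosome density, the block for each pair 19 and 144, TMM over all libraries 10 and 87, and, chosen after seeing the data, leaving out both DMSO replicate 1 libraries 14 and 139 and a threshold of 0.1 13 and 118. Input depth limits the ribosome density of EPHA4, EFNA4 and, under trametinib, EPHA2, with 11 to 15 input counts.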
